A study of Mus musculus with 12 samples.

Results

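The genes described here are 10 targets of the transcription factor NRF2 that encode no glutathione transferase: Gclc, Gclm, Slc7a11, Srxn1, Txnrd1, Gpx2, Nqo1, Cbr1, Ugdh and Hmox1. They were taken by name. Like the gene lists used below, they were chosen with earlier results of these data known, so their shares beside all genes are descriptions. Every probe set assigned to 1 of the 10 genes alone was used, which gave 18 of the 45101 probe sets on the Affymetrix mouse array. Where a gene has several probe sets, the one with the highest mean level stands for it, which makes these 10 of 18193 measured genes. Nqo1, Gpx2, Cbr1, Ugdh and Hmox1 have 1 probe set each, Gclc, Gclm and Slc7a11 have 2, Txnrd1 has 3 and Srxn1 has 4.

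NRF2, encoded by Nfe2l2, is held in the cytoplasm and marked for degradation by KEAP1. Electrophiles and oxidants modify KEAP1, and NRF2 then accumulates, pairs with a small MAF protein in the nucleus and activates genes through the antioxidant response element. Its targets make glutathione, reduce thioredoxin and peroxiredoxins, and neutralise quinones, carbonyls and heme. In the lung the pathway is known for protecting the epithelium against inhaled oxidants.

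The arrays carried RNA of type II alveolar epithelial cells, which make surfactant and renew the alveolar lining, in 4 genotype groups of 3 arrays: Gna11 knockout, Gnaq/Gna11 double knockout (Gnaq/Ga11 in the titles), Gna12 knockout and Gna12/Gna13 double knockout (Gna12/Ga13 in the titles). The genes encode alpha subunits of the G proteins Gq, G11, G12 and G13, and the stated purpose was to compare single with double knockout cells. All cells came from mouse lung and grew for 7 days on collagen, without treatment, in bronchial epithelial medium that contained keratinocyte growth factor and lacked hydrocortisone. Every group lacks either Gna11 or Gna12, and no wild-type group is among the 12 samples. The sources used here give no strain, age, kind of allele or Cre driver, and do not state that the 3 samples of a group are separate animals or cultures. The p-values thus measure the spread between samples that may be technical replicates. The labels also carry a position code with an unexplained number, 2 in Gna11 and Gnaq/Gna11 samples and 4 in Gna12 and Gna12/Gna13 samples. That number and the deleted gene cannot be told apart in comparisons across these 2 sets, and neither can the code's letter and the second deletion in comparisons of a double with its single knockout.

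Values are log2 expression per probe set as the authors' RMA processing gave them, and array medians lay between 5.03 and 5.11. All 9 measured type II markers stood above the median of all probe sets in each group, and Sftpc, the defining surfactant gene, had group means of 13.1 to 13.4. Markers of other cells stood above it in each group too: 11 or 12 of 12 macrophage, 5 of 6 airway and 7 or 8 of 8 type I genes. The airway gene Scgb1a1 had group means of 13.18 to 13.22, and the macrophage gene Chil3 of 12.89 to 12.99. Of 20 pan-leukocyte genes 18 or 19 also stood above that median in each group, with array means of 8.47 to 9.02 in Gna11, 9.35 to 9.51 in Gnaq/Gna11 and 9.54 to 10.05 in Gna12 cells. In Gna12/Gna13 cells they spanned 9.13 to 9.90. A sign of RNA quality, the excess of 3′ over 5′ signal for Gapdh, was 3.46 to 4.03 log2 units in Gna11 arrays and 2.67 to 3.33 in the other 9. The Y-linked gene Eif2s3y was low, at 3.56 or less, in all 3 Gnaq/Gna11 arrays and in replicate 2 of each other group, and at 6.91 or more elsewhere. Comparisons with Gnaq/Gna11 cells thus cannot fully tell genotype apart from the sex that this gene reflects. Of 7 Gnaq probe sets 3 had a lower and 4 a higher mean in Gnaq/Gna11 than in Gna11 cells; the largest difference was 6.77 against 7.63, and the brightest stood at 9.71 against 9.90. All 7 Gna13 probe sets had a lower mean in Gna12/Gna13 than in Gna12 cells, with the largest difference at 7.18 against 8.37. For Gna11, 1 probe set was at 7.19 and 7.25 in the groups lacking the gene and at 8.14 and 8.52 in the others, while the other probe set was highest, at 8.35, in Gna11 cells. The brightest Gna12 probe set had a mean of 7.00 in Gna12 and 6.70 in Gna11 cells, and the next 5.79 and 6.10. The sources do not say which of these probe sets fall within a deletion, and one outside it checks nothing.

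Promoter windows of 4 of the genes that passed between the double knockouts are shown, because the antioxidant response element is the sequence through which NRF2 is known to act. RefSeq windows of build GRCm38.p6, from 250 bases before to 50 bases after a transcription start, were at hand for 8 of the 10 genes, without Gclc and Hmox1. Capitals mark matches on either strand to the element's core, searched as TGACNNNGC and as TGAGNNNGC, and a match on the opposite strand appears as its reverse complement. The windows lie at chr2:152105274-152105573 (plus strand) for Srxn1, chr3:122245307-122245606 (plus strand) for Gclm, chr12:76795505-76795804 (minus strand) for Gpx2 and chr16:93607587-93607886 (plus strand) for Cbr1, and each covers the region upstream of the gene and the first bases of its transcript.
Srxn1: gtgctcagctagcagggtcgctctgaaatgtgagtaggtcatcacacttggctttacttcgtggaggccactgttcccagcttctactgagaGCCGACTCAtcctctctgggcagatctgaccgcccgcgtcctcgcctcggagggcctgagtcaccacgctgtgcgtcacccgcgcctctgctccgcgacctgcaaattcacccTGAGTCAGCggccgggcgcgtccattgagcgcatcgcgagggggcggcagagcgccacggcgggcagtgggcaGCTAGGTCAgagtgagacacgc
Gclm: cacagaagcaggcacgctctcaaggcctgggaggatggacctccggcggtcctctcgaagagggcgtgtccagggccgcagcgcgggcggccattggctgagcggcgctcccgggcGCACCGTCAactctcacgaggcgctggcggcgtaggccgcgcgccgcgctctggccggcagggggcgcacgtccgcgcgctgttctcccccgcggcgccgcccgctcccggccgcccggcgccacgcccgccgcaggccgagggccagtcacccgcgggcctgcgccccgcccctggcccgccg
Gpx2: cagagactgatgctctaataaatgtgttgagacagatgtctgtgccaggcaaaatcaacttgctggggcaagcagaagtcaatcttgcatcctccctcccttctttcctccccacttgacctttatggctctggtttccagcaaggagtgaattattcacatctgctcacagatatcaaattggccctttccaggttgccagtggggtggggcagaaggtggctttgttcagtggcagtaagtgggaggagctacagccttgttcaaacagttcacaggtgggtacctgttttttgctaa
Cbr1: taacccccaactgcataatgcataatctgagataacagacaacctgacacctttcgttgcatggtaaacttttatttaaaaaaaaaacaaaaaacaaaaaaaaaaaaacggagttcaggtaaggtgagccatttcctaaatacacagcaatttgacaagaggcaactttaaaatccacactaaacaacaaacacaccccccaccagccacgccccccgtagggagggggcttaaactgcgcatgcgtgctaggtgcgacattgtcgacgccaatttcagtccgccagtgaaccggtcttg
Srxn1 held 3 matches. They were TGAGTCGGC at 158 to 150 bases before the start (opposite strand), TGAGTCAGC at 45 to 37 bases before it and TGACCTAGC at bases 29 to 37 of the transcript (opposite strand). Gclm held TGACGGTGC at 134 to 126 bases before its start (opposite strand), and the Gpx2 and Cbr1 windows held no match to these letters. Among the other genes, Ugdh had 2 matches to TGACNNNGC, 1 of 3 Txnrd1 windows had 1, Slc7a11 had 1 match to TGAGNNNGC and Nqo1 had none. TGACNNNGC occurred in 4 of the 10 windows of these 8 genes and in 12.4% of all 32851 windows of this length, and TGAGNNNGC in 2 of the 10 and in 17.6%. A match describes these letters and is not a site.

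The clearest pattern was between the double knockouts. All 10 genes were at a higher level in Gna12/Gna13 than in Gnaq/Gna11 cells, although for Txnrd1 the sign was negative with Eif2s3y as a covariate (-0.19), and 5 of them passed the test: Gclc, Gclm, Srxn1, Gpx2 and Cbr1. Over all genes 6.1% passed in this comparison and 3.39% passed with a higher level in Gna12/Gna13 cells (limma, adjusted p under 0.05 over 18193 genes). The median difference was 1.18 over the 10 genes and -0.04 over all genes. For 9 of the 10 the 3 arrays of 1 double knockout were clear of those of the other, all higher in Gna12/Gna13 cells, beside 28.4% of all genes in either direction and 12.9% in this one. The same 9 had an unadjusted p under 0.05, beside 20.9% of all genes. At the level of probe sets, all 18 had a positive difference and 9 passed, beside 2.87% of all probe sets. These 9 belong to Gclc, Gclm, Srxn1, Gpx2 and Txnrd1, so that Cbr1 is not among them (adjusted p = 0.0552). Since the samples are whole cultures, fewer cells of a type and less RNA per cell cannot be told apart in any of these values.

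**Figure D1:**
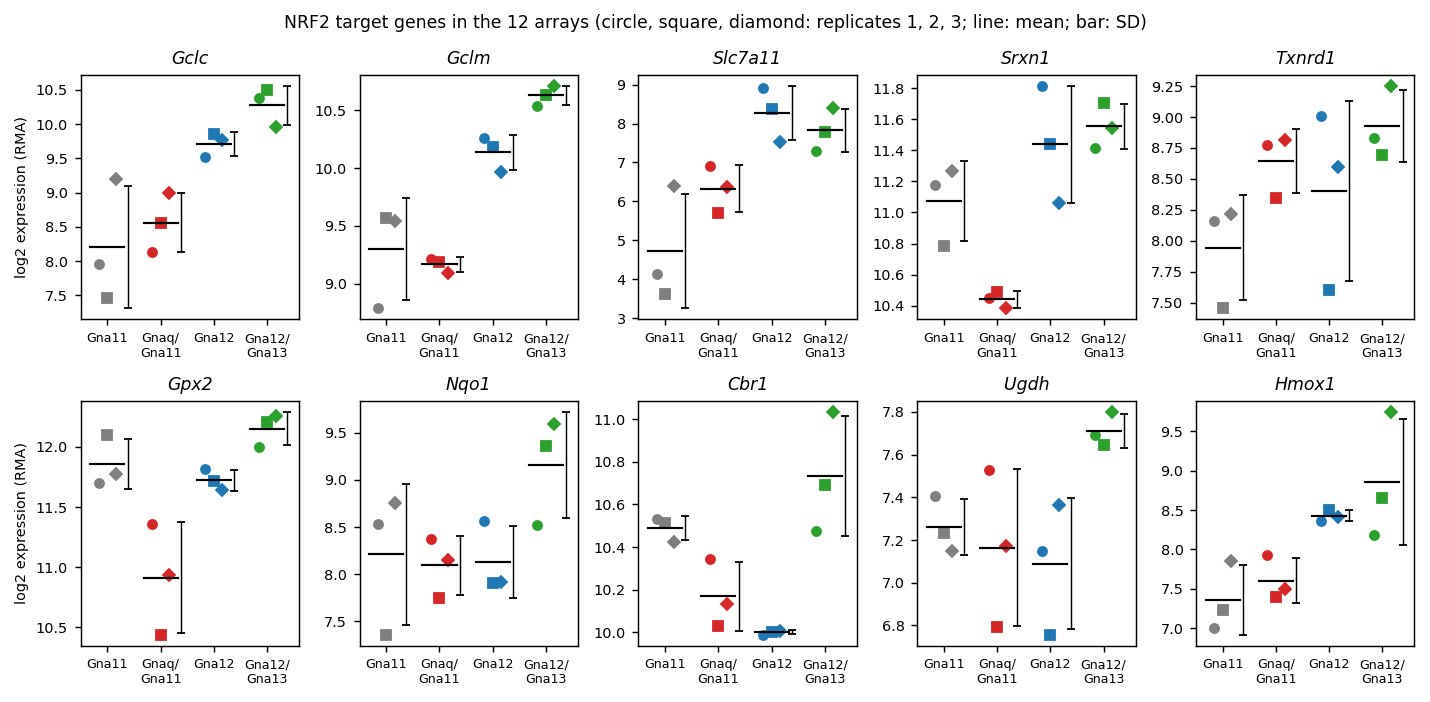
Log2 expression of the 10 NRF2 target genes (y axis, a scale of its own for each gene) in the 12 arrays by genotype group (x axis), with the mean as a line and the SD of 3 arrays as a bar; symbols mark replicates 1 to 3. In 9 of the 10 panels the Gna12/Gna13 group has the highest mean of the 4 groups, and for Gclc, Gclm and Ugdh its 3 arrays lie above all 9 others.

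Glutathione is made in 2 steps, of which the first, catalysed by glutamate cysteine ligase, limits the rate. Gclc encodes the catalytic subunit of this ligase. Its replicates 1, 2 and 3 read 7.95, 7.47 and 9.20 in Gna11, 8.14, 8.55 and 8.99 in Gnaq/Gna11, 9.51, 9.85 and 9.77 in Gna12, and 10.38, 10.49 and 9.95 in Gna12/Gna13 cells. The 6 arrays lacking Gna12 lay above the 6 lacking Gna11, and the Gna12/Gna13 arrays above all others. Between the double knockouts Gclc was 1.71 ± 0.38 higher (SE, 3.28-fold, adjusted p = 0.0257), and its second probe set passed too, with 1.51 ± 0.29 (adjusted p = 0.0198 over all probe sets). The call was lost without Gnaq/Gna11 replicate 1 or 2 (adjusted p = 0.0781 and 0.078) and without Gna12/Gna13 replicate 1 or 2 (0.0777 and 0.101). Between the single knockouts the difference of 1.50 ± 0.38 missed the threshold (adjusted p = 0.0586); without Gna11 replicate 3 it was 2.00 (adjusted p = 0.00624).

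Gclm encodes the modifier subunit, which raises the ligase's affinity for glutamate. Its arrays read 8.79, 9.57 and 9.54 in Gna11, 9.22, 9.19 and 9.10 in Gnaq/Gna11, 10.26, 10.18 and 9.97 in Gna12, and 10.54, 10.63 and 10.71 in Gna12/Gna13 cells. Again the 6 arrays lacking Gna12 stood above the other 6, with the Gna12/Gna13 arrays on top and a narrow spread in both double knockouts (SD 0.0851 and 0.0635). Gclm was 1.46 ± 0.19 higher in Gna12/Gna13 than in Gnaq/Gna11 cells (SE, 2.76-fold, adjusted p = 0.00276), and it passed under all 23 alternatives. It was also 0.84 ± 0.19 higher in Gna12 than in Gna11 cells (1.79-fold, adjusted p = 0.0469). That call, close to the threshold, held under 7 of 23 alternatives. It was lost without any 1 array other than Gna11 replicate 3, with an adjusted p of 0.0505 (without Gna11 replicate 2) to 0.154 (without Gna12 replicate 2). The second Gclm probe set, dim enough to lie under the array median in 6 arrays, gave 1.64 ± 0.20 and 0.94 ± 0.20 for the same comparisons (adjusted p = 0.00348 and 0.0495 over all probe sets).

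Slc7a11 encodes the light chain of the cystine and glutamate antiporter xCT, which supplies cysteine for glutathione. Its arrays read 4.15, 3.63 and 6.39 in Gna11, 6.90, 5.70 and 6.38 in Gnaq/Gna11, 8.92, 8.37 and 7.53 in Gna12, and 7.29, 7.78 and 8.41 in Gna12/Gna13 cells. It was the widest-ranging of the 10 genes: Gna11 replicates 1 and 2 lay under the median of their arrays and well below replicate 3, and all 6 arrays lacking Gna12 above all 6 lacking Gna11. Slc7a11 was 3.55 ± 0.64 higher in Gna12 than in Gna11 cells (SE, adjusted p = 0.0206), and 4.38 higher without Gna11 replicate 3. With 2 of the 3 Gna11 arrays in the dim range, the size of this difference is uncertain. The call was lost without Gna11 replicate 1 or 2 (adjusted p = 0.0639 and 0.0548) and without Gna12 replicate 1 or 2 (0.078 and 0.0891). Beside it, the pan-leukocyte mean was higher in Gna12 cells too, with all 20 genes positive and a median difference of 1.01. With that mean in the model the Slc7a11 difference was 1.33 (adjusted p = 0.835), in a fit that called 0 of 18193 genes in this comparison. In Gnaq/Gna11 against Gna11 cells the difference of 1.60 ± 0.64 did not pass (adjusted p = 0.244), but without Gna11 replicate 3 it was 2.44 (adjusted p = 0.0334). The second probe set lay under the median of all 12 arrays, at 2.93 to 4.01, and carries little information.

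Thioredoxin and the peroxiredoxins form the other thiol system under NRF2. Srxn1 encodes sulfiredoxin, which restores overoxidised peroxiredoxins. It read 11.18, 10.78 and 11.27 in Gna11, 10.45, 10.49 and 10.38 in Gnaq/Gna11, 11.82, 11.44 and 11.06 in Gna12, and 11.41, 11.70 and 11.54 in Gna12/Gna13 cells. The 3 Gnaq/Gna11 arrays lay below all 9 others and close together (SD 0.0538). Srxn1 was 1.11 ± 0.18 higher in Gna12/Gna13 than in Gnaq/Gna11 cells (SE, 2.16-fold, adjusted p = 0.00572) and passed under all 23 alternatives. Its other 3 probe sets had differences of 0.84 to 1.43 there, and 2 of them passed. Against Gna11 cells the Gnaq/Gna11 difference was -0.63 ± 0.18 (adjusted p = 0.107), and the probe sets disagreed, with -0.22, -0.04 and 0.15 for the other 3. For Gna12 against Gna11 the represented value was 0.36 ± 0.18 (adjusted p = 0.269), while 1 other probe set passed at 1.46 ± 0.29 (adjusted p = 0.0404 over all probe sets).

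Txnrd1, the selenoenzyme that reduces cytosolic thioredoxin, read 7.46 to 8.22 in Gna11, 8.35 to 8.81 in Gnaq/Gna11, 7.60 to 9.01 in Gna12 cells, against 8.69 to 9.25 in Gna12/Gna13 cells. It was the single gene of the 10 whose arrays overlapped between the double knockouts, with a difference of 0.28 ± 0.35 (95% interval -0.48 to 1.04). Its probe sets disagreed here as well: the other 2 gave 1.44 ± 0.35 (adjusted p = 0.0507) and 1.19 ± 0.25 (adjusted p = 0.0323 over all probe sets), and the mean of the 3 gave 0.97 (adjusted p = 0.0311).

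Gpx2 encodes the glutathione peroxidase of gut and airway epithelium, which reduces hydrogen peroxide and lipid peroxides. Its arrays read 11.70, 12.10 and 11.77 in Gna11, 11.36, 10.44 and 10.93 in Gnaq/Gna11, 11.81, 11.71 and 11.64 in Gna12, and 11.996, 12.21 and 12.26 in Gna12/Gna13 cells. The Gnaq/Gna11 arrays were below all 9 others. Gpx2 was the only one of the 10 genes to pass between a double and its single knockout, where it fell in Gnaq/Gna11 cells by 0.95 on the log2 scale (SE 0.19, 1.93-fold, adjusted p = 0.0356), beside 1.84% of all genes that passed in either direction and 0.676% that fell. It held under 7 of 23 alternatives. Without Gna11 replicate 1, 2 or 3 the adjusted p was 0.0613, 0.101 or 0.052, without Gnaq/Gna11 replicate 2 or 3 it was 0.0748 or 0.0969, without Gna12 replicate 1, 2 or 3 it was 0.0571, 0.0552 or 0.0506, and without Gna12/Gna13 replicate 2 it was 0.0534. With the replicate number as a block it was 0.0606. The difference stayed between -1.23 and -0.71 over these alternatives. Between the double knockouts Gpx2 was 1.24 ± 0.19 higher in Gna12/Gna13 cells (2.37-fold, adjusted p = 0.00473) and passed under all 23.

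Quinones and carbonyls are the substrates of the next enzymes. Nqo1, the quinone reductase often used as the readout of NRF2 activity, read 8.53, 7.36 and 8.75 in Gna11, 8.38, 7.75 and 8.15 in Gnaq/Gna11, 8.57, 7.91 and 7.92 in Gna12, and 8.52, 9.36 and 9.59 in Gna12/Gna13 cells. Replicates 2 and 3 of Gna12/Gna13 cells were above every other array, while replicate 1 lay among them. Nqo1 did not pass in any comparison: it was 1.06 ± 0.39 higher in Gna12/Gna13 than in Gnaq/Gna11 cells (adjusted p = 0.142) and 1.03 ± 0.39 higher than in Gna12 cells (adjusted p = 1.00). Between the single knockouts its 95% interval was -0.94 to 0.77.

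Cbr1, a carbonyl reductase that acts on quinones, prostaglandins and lipid aldehydes, read 10.53, 10.51 and 10.42 in Gna11, 10.35, 10.03 and 10.13 in Gnaq/Gna11, 9.99, 10.00 and 10.01 in Gna12, and 10.48, 10.69 and 11.03 in Gna12/Gna13 cells. Here the Gna12 arrays were the lowest of the 12 and nearly identical (SD 0.00932). Cbr1 was 0.56 ± 0.14 higher in Gna12/Gna13 than in Gnaq/Gna11 cells (SE, 1.48-fold, adjusted p = 0.0409), a call that held under 10 of 23 alternatives. It was lost without Gnaq/Gna11 replicate 2 or 3 (adjusted p = 0.133 and 0.114), without Gna12/Gna13 replicate 2 or 3 (0.111 and 0.105), without Gna11 replicate 1 or 3 (0.0516 and 0.052), without Gna12 replicate 1, 2 or 3 (0.0595, 0.0577 and 0.0547) and with the replicate block (0.061). Over all probe sets it had an adjusted p of 0.0552. The larger difference, 0.73 ± 0.14 between Gna12/Gna13 and Gna12 cells, did not pass (adjusted p = 0.739), as no gene did in that comparison.

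Ugdh, which makes the UDP-glucuronic acid used in glucuronidation and in hyaluronan, read 7.15 to 7.40 in Gna11, 6.79 to 7.53 in Gnaq/Gna11, 6.76 to 7.36 in Gna12 and 7.69, 7.64 and 7.80 in Gna12/Gna13 cells. The Gna12/Gna13 arrays lay above all 9 others, yet the gene did not pass against Gnaq/Gna11 (0.55 ± 0.22, adjusted p = 0.19) or Gna12 cells (0.62 ± 0.22, adjusted p = 1.00).

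Hmox1 encodes heme oxygenase, which splits heme into biliverdin, iron and carbon monoxide and is abundant in macrophages. It read 7.00, 7.23 and 7.86 in Gna11, 7.93, 7.39 and 7.49 in Gnaq/Gna11, 8.36, 8.50 and 8.41 in Gna12, and 8.19, 8.65 and 9.75 in Gna12/Gna13 cells. Every array lacking Gna12 was above every array lacking Gna11. Neither comparison across these sets passed, with 1.26 ± 0.36 between the double (adjusted p = 0.0668) and 1.06 ± 0.36 between the single knockouts (adjusted p = 0.13). Without Gna12/Gna13 replicate 1 the first was 1.59 (adjusted p = 0.0396). With the pan-leukocyte mean in the model the second was -0.04 (adjusted p = 0.994), in a fit that called 0 of 18193 genes between the single knockouts.

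In Gnaq/Gna11 against Gna11 cells the differences of the 10 genes went both ways. Gpx2 was the 1 gene called. Of the 10, 4 had a positive and 6 a negative difference, with a median of -0.11 against -0.03 over all genes; it was 0.01, 0.07 and 0.07 without Gna11 replicate 1, Gna11 replicate 3 or Gnaq/Gna11 replicate 2. Without regard to sign the median difference was 0.34, against 0.18 over all genes. Gpx2, Srxn1, Slc7a11 and Cbr1 had an unadjusted p under 0.05, 4 of the 10 beside 16.2% of all genes. The arrays of the groups were clear of each other for Cbr1, Gpx2, Srxn1 and Txnrd1, beside 19.7% of all genes. Over all probe sets 0 of the 18 passed, beside 0.759%, and Gpx2 was no longer called there. In Gna12/Gna13 against Gna12 cells 9 of the 10 had a positive difference, all but Slc7a11 at -0.45 ± 0.64. The median was 0.51 against 0.00 over all genes. With the pan-leukocyte mean in the model Slc7a11 was at 0.12, and without 1 array Hmox1 (Gna12/Gna13 replicate 3) or Srxn1 (Gna12 replicate 3) was at -0.01 or -0.07. Limma called 0 of the 10 genes and 0 of all 18193 there, and 5 of the 10 (Cbr1, Ugdh, Nqo1, Gclm and Gpx2) had an unadjusted p under 0.05 beside 4.51% of all genes. The arrays of Gna12/Gna13 and Gna12 cells did not overlap for 5 of the 10, beside 11.3% of all genes. Here 18 of 20 pan-leukocyte genes had a negative difference (median -0.22).

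Whether these double-minus-single differences were unlike was tested by the difference of the 2 differences. Limma called 0 of the 10 genes and 13 of all genes (0.0715%), and 6 of the 10 had an unadjusted p under 0.05 beside 10.8% of all genes. Closest were Cbr1 with -1.05 ± 0.20 (adjusted p = 0.0856) and Gpx2 with -1.38 ± 0.27 (adjusted p = 0.0926). Both had a negative difference in Gnaq/Gna11 and a positive one in Gna12/Gna13 cells, each against the single knockout. In the same test 19 of 20 pan-leukocyte genes were positive (median 0.94), and the macrophage median was 1.28; their part in the result was not tested. Without Gnaq/Gna11 replicate 1 Gpx2 passed, at -1.60 (adjusted p = 0.0259).

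Between the single knockouts, Gclm and Slc7a11 passed of the 10 genes, both higher in Gna12 cells, beside 2.82% of all genes and 1.74% higher. Over all probe sets 3 of the 18 passed, 1 each of Gclm, Slc7a11 and Srxn1, beside 1.3%. The median was 0.41 over the 10 and -0.06 over all genes, and over the 10 it was 0.22 without Gna11 replicate 2 and 0.17 without Gna12 replicate 1. Gclc, Gclm, Slc7a11, Hmox1 and Cbr1 had arrays that did not overlap, beside 26.3% of all genes, and Cbr1 was the one of these with a lower value in Gna12 cells (-0.49 ± 0.14, adjusted p = 0.0852). The 4 pairwise comparisons share groups: each group enters 2 of them, so that a low Gna11 or a high Gna12/Gna13 value shows in both.

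**Figure D2:**
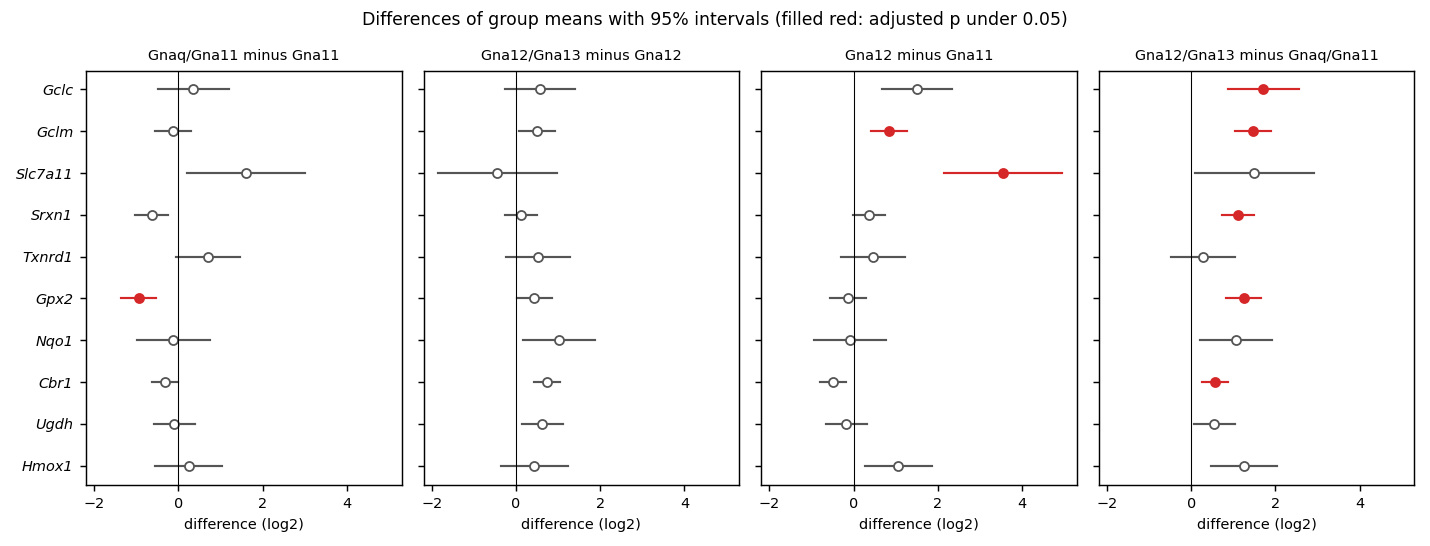
Differences of group means on the log2 scale (x axis) for the 10 genes (y axis) in the 4 comparisons, with 95% intervals from the limma model as bars; filled red points passed at an adjusted p under 0.05. Gpx2 passed in the first panel, no gene in the second, Gclm and Slc7a11 in the third, and Gclc, Gclm, Srxn1, Gpx2 and Cbr1 in the fourth, where all 10 points lie above 0.

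The regulators of the pathway were examined through 12 genes. Nfe2l2 itself read 8.61, 8.84 and 8.81 in Gna11, 8.81, 9.01 and 8.18 in Gnaq/Gna11, 9.38, 9.22 and 8.97 in Gna12, and 9.41, 9.18 and 9.22 in Gna12/Gna13 cells. The arrays of the double knockouts did not overlap, but the difference of 0.60 ± 0.22 did not pass (adjusted p = 0.129), nor did that of 0.44 ± 0.22 between the single knockouts (adjusted p = 0.275). A second Nfe2l2 probe set was dimmer and lay under the array median in 6 arrays. Its group means were 4.28 in Gna11, 4.52 in Gnaq/Gna11, 5.45 in Gna12 and 5.22 in Gna12/Gna13 cells. Every array lacking Gna12 was above every array lacking Gna11 there, and no test is given for it. For Keap1 the 95% interval between the double knockouts was -0.25 to 0.40. Of the 12 regulators 3 passed between the double knockouts, beside 6.1% of all genes, all higher in Gna12/Gna13 cells: Nfe2l3, an NRF2-related factor, with 1.68 ± 0.40, Sqstm1, the autophagy adaptor that binds KEAP1, with 1.11 ± 0.16, and Mafg, a small MAF partner of NRF2, with 1.02 ± 0.16 (adjusted p = 0.0353, 0.00404 and 0.00526). Sqstm1 and Mafg also passed between the single knockouts, at 0.89 ± 0.16 and 0.93 ± 0.16 higher in Gna12 cells (adjusted p = 0.0216 and 0.0174). Nfe2l3 was the regulator that passed between Gnaq/Gna11 and Gna11 cells, where it fell by 2.08 (SE 0.40, adjusted p = 0.0303).

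Of 27 further NRF2 targets 22 were measured. Between the double knockouts 9 of the 22 passed, beside 6.1% of all genes and 3.39% higher, each of them higher in Gna12/Gna13 cells; the median over the list was 0.43 against -0.04 over all genes. The largest were Cbr3, a carbonyl reductase beside Cbr1 in the genome, with 1.87 ± 0.26, the aldehyde oxidase Aox1 with 1.74 ± 0.23, the ubiquitin ligase gene Trim16 with 1.34 ± 0.20 and the epoxide hydrolase Ephx1 with 1.07 ± 0.12 (adjusted p = 0.00319, 0.00272, 0.00426 and 0.000854). Between the single knockouts 6 of 22 passed, beside 2.82% of all genes and 1.74% higher, all higher in Gna12 cells: the aldo-keto reductase Akr1b8 (1.82 ± 0.22), glutathione reductase Gsr (1.15 ± 0.22), the pentose phosphate enzymes Taldo1 (0.94 ± 0.16) and Pgd (0.43 ± 0.07), Trim16 (0.93 ± 0.20) and ferritin heavy chain Fth1 (0.43 ± 0.09), with adjusted p-values from 0.00454 to 0.04. These genes did not all move one way. Between the single knockouts 14 of the 22 had a positive and 8 a negative difference, from -1.15 to 1.82. The median over the list was 0.17 there, against -0.06 over all genes. In Gnaq/Gna11 against Gna11 cells Akr1b8 rose by 1.63 ± 0.22 (adjusted p = 0.00719) and Ephx1 fell by 0.85 (SE 0.12, adjusted p = 0.0072), and the other 20 did not pass. Ephx1 was also the 1 gene of these lists for which the difference of differences passed, with -1.13 ± 0.16 (adjusted p = 0.0413).

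A further list held 16 measured genes that were not listed as NRF2 targets. Most act in glutathione and thioredoxin metabolism, but superoxide dismutases, carbonyl reductases and a heme oxygenase are among them. The list had a median difference of -0.04 between the double knockouts, near that of all genes, from members that went both ways. Of these 16, 3 passed, beside 6.1% of all genes, and 8 had arrays that did not overlap, beside 28.4%. Among the 3, 1 was higher in Gna12/Gna13 cells, the mitochondrial superoxide dismutase Sod2 (0.42 ± 0.10, adjusted p = 0.031), and 2 were lower, the peroxiredoxin of the endoplasmic reticulum Prdx4 (-1.05 ± 0.18, adjusted p = 0.00875) and the testis-enriched reductase Txnrd3 (-0.86 ± 0.23, adjusted p = 0.0489). Prdx4 rose in Gnaq/Gna11 against Gna11 cells by 1.10 ± 0.18 (adjusted p = 0.0171), and no gene of this list passed between the single knockouts.

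**Figure D3:**
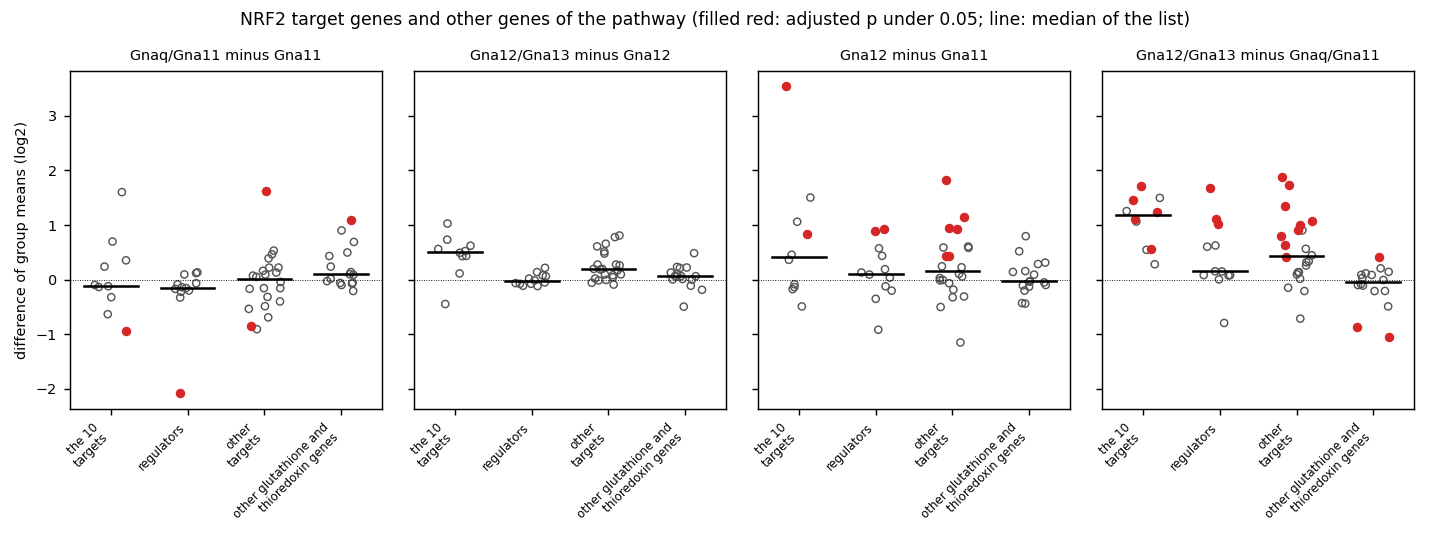
Differences of group means on the log2 scale (y axis) for 4 gene lists (x axis) in the 4 comparisons. The lists are the 10 targets, 12 regulators, 22 other targets and 16 genes labelled as other glutathione and thioredoxin genes. The last list also holds superoxide dismutases, carbonyl reductases and a heme oxygenase. Each point is a gene, filled red where it passed, and the lines are list medians. In the fourth panel the medians are 1.18, 0.15, 0.43 and -0.04 in that order.

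Markers of cell types were set beside these differences. Between the double knockouts the pan-leukocyte genes had a median difference of 0.06, with 14 of 20 positive and 6 negative, the 12 macrophage genes one of -0.16, and the 9 type II genes one of -0.75, all 9 negative and 5 of them passing. The 6 fibroblast genes had the largest median shift of the 8 marker lists, with a median of -1.17, 5 negative and 3 passing; their array means were 6.71 to 7.13 in Gnaq/Gna11 and 5.26 to 6.06 in Gna12/Gna13 cells. In Gnaq/Gna11 against Gna11 cells their median was 0.88, with 2 passing as higher. The 5 endothelial genes had a median of 0.91 between the double knockouts, with 3 positive and none passing. The 6 general epithelial genes had one of 0.11, with 4 positive, 2 negative and 2 passing as higher. For the 6 airway genes it was 0.10, with 4 positive, 2 negative and 1 passing as higher. For the 8 type I genes it was 0.14, with 4 positive, 4 negative and none passing. With the pan-leukocyte mean in the model 4 of the 5 calls of this comparison held, without Cbr1 (adjusted p = 0.0535), and with the Gapdh difference all 5 held. The mean Gapdh difference was 3.14 in Gnaq/Gna11 and 3.15 in Gna12/Gna13 arrays. That covariate could therefore shift the difference between these groups little, and the calls that held say little about RNA quality. With Eif2s3y as a covariate Gclm, Srxn1 and Gpx2 passed, and Gclc (1.62, adjusted p = 0.0599) and Cbr1 (0.55, adjusted p = 0.0807) did not. The part of any marker list other than the pan-leukocyte one in these differences was not tested. Nor was that of any marker in the differences of the other pathway genes. Leukocyte genes had larger differences in the comparisons with Gna11 cells. Their median difference was 1.01 between the single knockouts, with 20 of 20 positive, and 0.51 between Gnaq/Gna11 and Gna11 cells, with 19 of 20 positive, and macrophage genes stood at 1.49 and 1.33. In those 2 comparisons none of the 10 genes passed with the pan-leukocyte mean or the Gapdh difference as a covariate, where 0 to 15 of all 18193 genes did. The differences themselves were, with the pan-leukocyte mean and then the Gapdh difference in the model, -0.97 and -1.23 for Gpx2 (-0.95 without either), 0.74 and 0.32 for Gclm (0.84) and 1.33 and 2.08 for Slc7a11 (3.55).

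**Figure D4:**
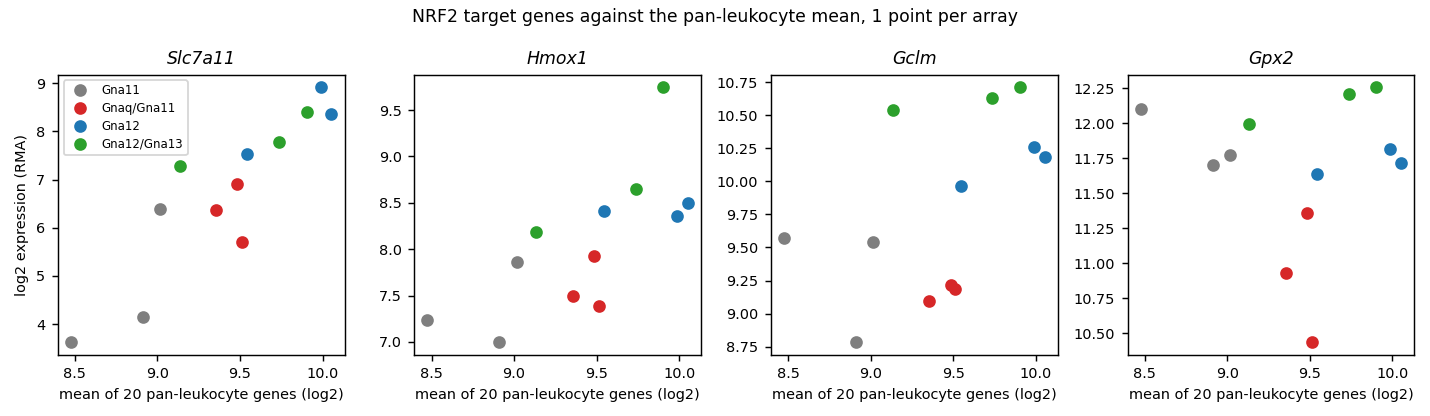
Log2 expression of Slc7a11, Hmox1, Gclm and Gpx2 (y axes) against the mean of 20 pan-leukocyte genes (x axes, log2), 1 point per array, coloured by genotype group. Over the 12 arrays Pearson's r is 0.89 for Slc7a11, 0.72 for Hmox1, 0.52 for Gclm and -0.03 for Gpx2, as a description of arrays that fall into groups.

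Within groups the 10 genes did not vary as 1 block. After the group means were removed, Nqo1 and Slc7a11 varied most alike over the 12 arrays (Pearson's r = 0.79), followed by Hmox1 and Cbr1 (0.77) and Nqo1 and Srxn1 (0.71), and Gclc and Cbr1 were the most opposed pair (-0.45). These are descriptions of arrays that share 4 estimated means. Nqo1, Srxn1, Slc7a11 and Hmox1 also followed the pan-leukocyte mean within groups (r = 0.78, 0.73, 0.66 and 0.62), while Gpx2 and Gclm did not (0.03 and 0.11). With the Gapdh difference Gclm had an r of -0.72 within groups, the largest of the 10 without regard to sign.

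The genes whose pattern over the 12 arrays was most like that of a gene that passed were sought among 8794 other genes. These were at or above the median level of all genes, and genes with clone, predicted or RIKEN names were left out. For Gclc these were Cdv3, Marchf7 and Pttg1ip (Pearson's r = 0.97, 0.96 and 0.96), for Gclm Itpka, Cmbl and Sem1 (0.96, 0.95 and 0.94), and for Slc7a11 Pstpip2, Stk10 and Tnfaip2 (0.98, 0.97 and 0.96). For Srxn1 they were Sgms2, Sod2 and Gipc2 (0.95, 0.94 and 0.94), for Gpx2 Asb14, Spaca9 and Kcnmb4 (0.98, 0.98 and 0.97), and for Cbr1 Hsp90aa1, Akip1 and Hey1 (0.87, 0.86 and 0.85). None of the 10 targets was among the 3 nearest genes of another, which says little with 3 places among 8794 genes. These r values include the differences between groups and are the highest of many.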

How the data were processed

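Gene expression was measured on Affymetrix arrays in 12 samples, 3 for each of 4 genotypes given by the sample titles. The deposited values are RMA summaries per probe set, per the submitters' processing notes, with no version given. They were read here as log2 values, because the deposited table runs from 2.13 to 14.06; the base is not stated. The sources name no genome build. Of 45101 probe sets 64 were controls, and the platform annotation named 1 gene for 34945, several for 932 and none for 9160. Symbols of 34741 were updated through the RefSeq table of GRCm38.p6.

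A model with 1 mean per group was fitted with limma 3.58.1 in R 4.3.3 (lmFit, then eBayes with trend; residual degrees of freedom 8, prior 3.19) to 18193 genes, and separately to 45037 probe sets. P-values are two-sided and adjusted by Benjamini-Hochberg over all of them, with a threshold of 0.05. Errors are standard errors of the model, n = 3 arrays a group, and the number of arrays limits the precision. The fit was tested on simulated data. No 2 arrays were identical, and the lowest correlation within a group was 0.963. Alternatives were other ways to represent a gene, a filter on low values, normalization, variance models, covariates, a replicate block and leaving out each array. Gene lists and the genes named follow rules set with the tests: all 10 genes, up to 6 called genes of a list or otherwise its 4 largest, Nfe2l2, Keap1, the targeted genes and the 3 most alike genes. The genes and lists were chosen with earlier results of these data known.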

Additional observations from a re-analysis of the deposited data

How the results depend on the processing

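Of 1140 values for the 50 pairs of a gene and a comparison, 1043 kept their direction and their side of the threshold, 57 lost and 8 gained a call, and 32 changed sign, none of the latter from a pair that had passed. The number of the 10 genes called between the double knockouts, 5 in the fit reported, was 3 with Eif2s3y as a covariate and 3 to 5 without 1 array. Between the single knockouts it was 2, and 1 with quantile normalization or the replicate block, 0 with the pan-leukocyte mean, with the Gapdh difference or with only the arrays compared, 4 at an adjusted p under 0.1, and 0 to 3 without 1 array; the median difference was -0.002 with the pan-leukocyte mean and 0.165 to 0.589 without 1 array. Between Gnaq/Gna11 and Gna11 cells it was 1, and 0 without the intensity trend, with array weights, the replicate block, any of the 3 covariates, only the arrays compared or all probe sets, and 0 to 1 without 1 array; the median difference was 0.081 with Eif2s3y and -0.21 to 0.07 without 1 array. For the difference of differences it was 0, 2 at an adjusted p under 0.1 and 0 to 1 without 1 array. Between Gna12/Gna13 and Gna12 cells it was 0 under all 25 alternatives. The fits reported called 335, 0, 13, 513 and 1109 of all genes (the double-minus-single comparisons, their difference, the single and the double knockouts), those with the pan-leukocyte mean 15, 0, 0, 0 and 1019, with the Gapdh difference 3, 0, 0, 0 and 1122, and with only the arrays compared 139, 0, 22 and 843, leaving out the difference. Array weights gave 174, 0, 28, 431 and 1640, the mean of probe sets 35 and the filter on low values 36 for the difference, which was 22 without the intensity trend. An adjusted p under 0.1 gave 689, 0, 89, 1348 and 1911. Without 1 array the counts were 102 to 381, 0 to 3, 0 to 40, 62 to 736 and 369 to 1259 in the same order. The causes of these shifts were not tested.

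Signs changed for values that had not passed. In Gnaq/Gna11 minus Gna11, Nqo1 was 0.113 and Ugdh 0.049 with Eif2s3y, Hmox1 -0.432 and Ugdh 0.028 with the pan-leukocyte mean, and Hmox1 -0.33 and Ugdh 0.121 with the Gapdh difference; without 1 array Nqo1 ran from -0.547 to 0.149, Gclc from -0.015 to 0.852, Gclm from -0.391 to 0.002 and Ugdh from -0.28 to 0.089. In Gna12/Gna13 minus Gna12, Slc7a11 was 0.122 with the pan-leukocyte mean, and without 1 array Hmox1 ran from -0.008 to 0.772 and Srxn1 from -0.074 to 0.303. In the difference of differences Txnrd1 was -0.426 with the mean of its probe sets and -0.079 with the pan-leukocyte mean, and without 1 array Gclc ran from -0.577 to 0.29, Hmox1 from -0.532 to 0.248 and Txnrd1 from -0.129 to 0.575. In Gna12 minus Gna11, Hmox1 was -0.037, Srxn1 -0.288 and Ugdh 0.032 with the pan-leukocyte mean, Ugdh 0.101 with the Gapdh difference, and Nqo1 ran from -0.511 to 0.185 without 1 array. In Gna12/Gna13 minus Gnaq/Gna11, Txnrd1 was -0.189 with Eif2s3y. The causes were not tested.

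Replicate numbers were not taken as pairs, since not every same-numbered pair had deviations from the group means that correlated above 0.1. The correlation was 0.009, 0.025 and 0.06 for Gna11 with Gnaq/Gna11 and -0.014, 0.271 and 0.196 for Gna12 with Gna12/Gna13 cells, where unmatched numbers gave -0.285 to 0.062. Replicate 2 was the array low in Eif2s3y in Gna11, Gna12 and Gna12/Gna13 cells. With the replicate block 4 of the 10 genes were called between the double knockouts, 1 between the single knockouts and 0 elsewhere, and 309, 0, 16, 445 and 1090 of all genes.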
